A study of Mus musculus with 30 samples.

Results

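Potassium channel transcripts other than those of the Kv1 family were compared between 3 pools of spinal motoneurons. The members were all probe sets whose single gene symbol begins with Kcn followed by a subfamily letter and a number, without the Kv1 alpha subunits (Kcna) and their beta subunits (Kcnab). This gave 38 probe sets for 32 genes, out of 12422 probe sets for 8251 genes on the array. The pools were intermediolateral column motoneurons (IML), lateral motoneurons (LMN) and medial motoneurons (MMN), and all 3 came from the spinal cord of each of 5 adult, sham-operated mice. The labels used here give no strain or sex and do not name the operation that the sham controls for. For each animal and pool, RNA of 400 laser captures was divided in 2 portions, each portion was amplified, and each was hybridised to its own array. The mean of both arrays made 1 sample, so there were 15 samples from 30 arrays, and n is the number of animals.

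Potassium channels set the resting potential of a motoneuron, end its action potentials and shape the pause that follows them. Channels with tandem pore domains (K2P) carry leak current, inward rectifiers pass current near rest and can be opened by G proteins or closed by ATP, and calcium-activated channels carry afterhyperpolarization current. Voltage-gated families outside Kv1 include the fast Kv3 channels, the A-type Kv4 channels, the ERG channels and the Kv7 channels, with silent and accessory subunits that alter them. IML holds the preganglionic neurons of the autonomic system, and LMN and MMN are somatic motoneurons that drive skeletal muscle. The comparison asked which of these channel transcripts differ between autonomic and somatic motoneurons and between the somatic pools.

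By class, the members were 11 inward rectifier genes (15 probe sets) and 5 K2P genes. A further 5 were grouped under calcium- and sodium-activated channels: Kcnma1, Kcnn1, Kcnn4, Kcnu1 and the accessory subunit Kcnmb1. No sodium-activated channel gene (Kcnt) was among them. There were also 3 Kv4 genes (4 probe sets) and 3 genes of Kv7 or its KCNE subunits (4 probe sets). The remaining members were 2 ether-a-go-go genes, Kcnh1 and Kcnh2, 2 silent subunits, Kcns1 and Kcns2, and 1 Kv3 gene, Kcnc1. Of 22 channel genes that were to be named in any case, 13 were measured. Kcnn2, Kcnn3 and Kcnj10 were not measured here. All values below are log2 intensities or differences between them. Detection calls were not used here, so it is unknown which dim probe sets measured a transcript, and levels of different probe sets cannot be ranked as amounts of transcript. By their mean over all samples, 11 of the 38 probe sets lay at or above the median of all probe sets (7.10), 27 lay below it and 11 lay below the lower quartile (5.75).

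The samples also differed in markers of cell types. Of 12 meningeal and fibroblast markers, such as Col1a1, Lum and Igf2, 11 were called higher in IML than in LMN, and the mean of the list ran from 8.88 to 10.13 in IML, from 7.34 to 9.12 in LMN and from 7.92 to 9.94 in MMN. Microglia and macrophage markers were called higher in IML than in LMN in 7 of 13 cases, with list means of 6.79 to 7.29 in IML and 6.55 to 6.71 in LMN. Also called higher in IML than in LMN were 2 of 9 astrocyte markers (Fabp7, by 1.56, and Gja1, by 0.56), 1 of 11 oligodendrocyte markers (Gsn, by 1.54), 2 of 13 endothelial and mural markers (Vwf and Cdh5) and 1 of 4 inhibitory interneuron markers (Gad1, by 0.95). None of the 2 excitatory interneuron markers and of the 4 red blood cell markers was called. Each gene of these and the later lists was taken by its probe set with the highest mean. Over all probe sets, dim ones included, 8.98% were called between IML and LMN in either direction. Of the 6211 probe sets at or above the median level, 454 were called higher and 322 lower in IML than in LMN. None of these shares is that of a like set of genes. Counts such as 1 of 11 or 2 of 13 are therefore not read as differences of a cell type. Of 6 measured motoneuron markers, 4 (Nefh, Slc18a3, Lhx3 and Ret) were called lower in IML than in LMN, and Chat, Slc5a7, Calca, Mnx1 and Lhx4 were not measured here. The mean of the motoneuron list ran from 7.67 to 8.30 in IML and from 7.74 to 9.11 in LMN, where the sample of animal 2 gave the lowest value. That LMN sample also had the highest fibroblast mean of its pool (9.12), and results are given with and without it where they rest on it. In such captures, fewer cells of a type, less RNA per cell and a different level of the marker genes in the motoneurons of a pool cannot be told apart.

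Of the 38 probe sets, 1 was called between IML and LMN at an adjusted p below 0.05 and 1 by the test of any difference among the 3 pools. The called transcripts were those of Kcnk2, higher in IML than in LMN, and of Kcnj1, at a low level and highest in LMN. No member was called for IML against the somatic mean, for IML against MMN, or for LMN against MMN. Among all probe sets, the shares called by limma with adjustment over all probe sets were 5.52% for IML against the somatic mean, 8.98% for IML against LMN and 0.346% for IML against MMN. They were 0.0564% for LMN against MMN and 4.89% for any difference. At an unadjusted p below 0.05 the members numbered 7 (18.4%) for IML against the somatic mean, where 20.7% of all probe sets passed. The numbers were 8 (21.1%) against 23.5% for IML and LMN, 2 (5.26%) against 12.3% for IML and MMN, and 4 (10.5%) against 11.6% for LMN and MMN. For any difference among the pools, 7 members (18.4%) passed, against 20% of all probe sets. The members' shares at the unadjusted threshold were below those of all probe sets in each of the 5 tests, and the difference between these shares was not tested.

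**Figure D1:**
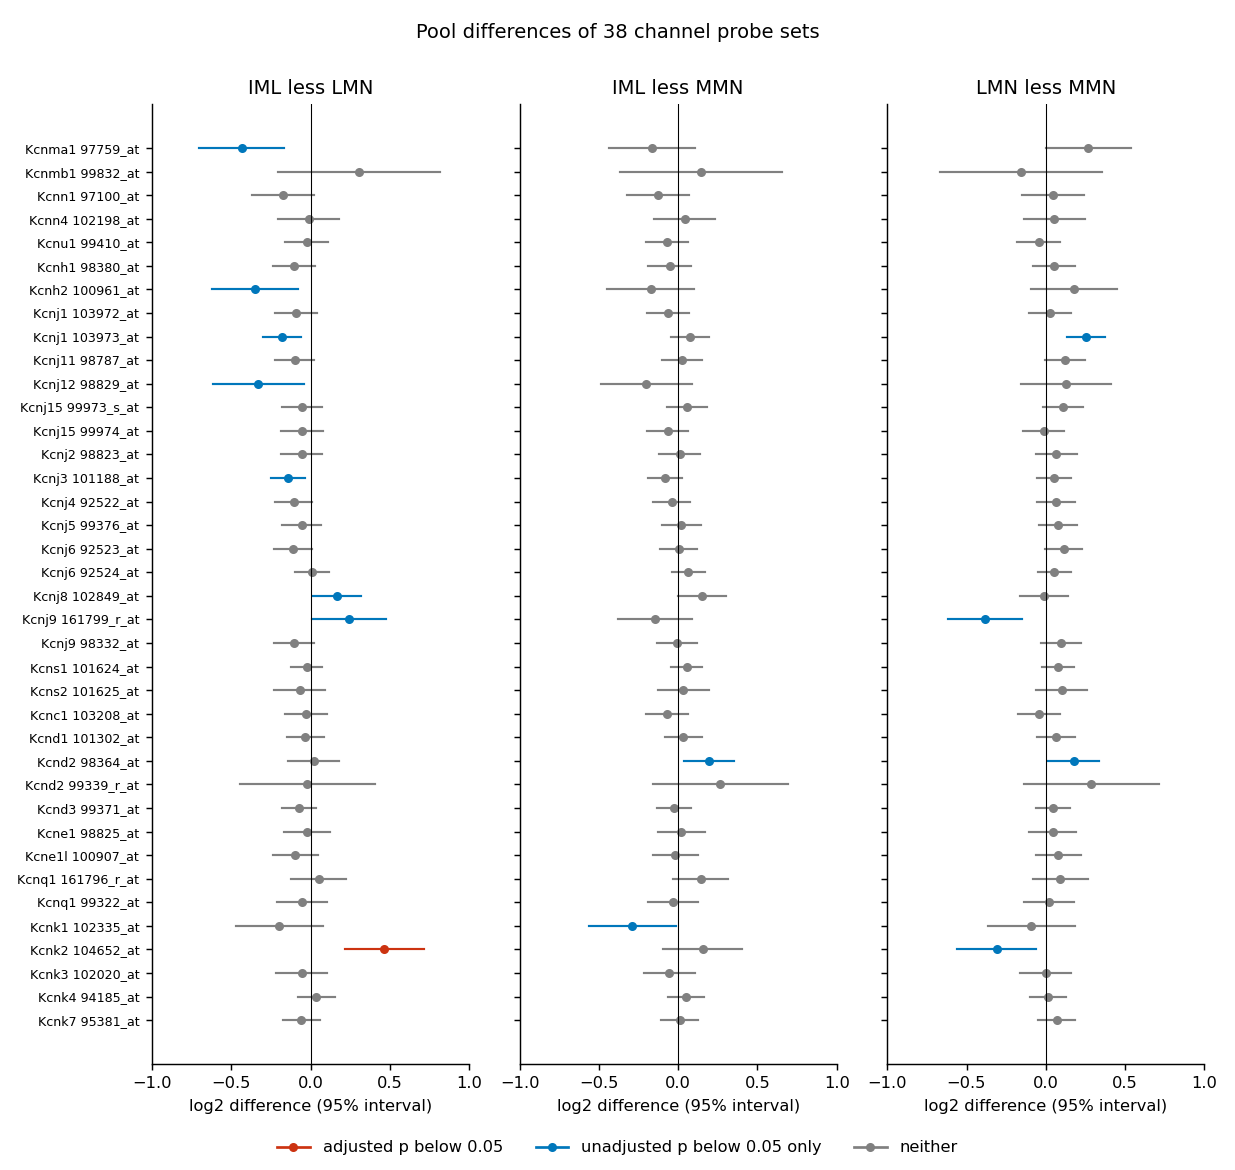
Difference in log2 intensity with its limma 95% interval for each of the 38 probe sets. The 3 comparisons of pools are named above the panels, with 5 animals a pool. Kcnk2 in IML less LMN, at 0.47, is the 1 difference drawn as called, and most of the other intervals include 0.

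The leak channel genes held the 1 difference between 2 pools that was called, beside several flat members. Kcnk2 encodes TREK-1, a K2P channel that responds to stretch, lipids and temperature. In animals 1 to 5 its log2 values were 9.39, 10.24, 9.13, 9.22 and 9.64 in IML. They were 9.09, 9.23, 8.81, 8.78 and 9.39 in LMN, and 9.11, 9.96, 9.18, 8.83 and 9.77 in MMN. The pools overlapped, since the lowest IML samples lay below the highest LMN samples, but within each animal IML was above LMN. The mean of IML was 9.53 ± 0.45 (SD, n = 5), that of LMN 9.06 ± 0.27 and that of MMN 9.37 ± 0.47. The paired difference between IML and LMN was 0.47 ± 0.11 (limma SE, n = 5), with a limma 95% interval of 0.22 to 0.71. It was 1.38-fold, and limma gave an adjusted p of 0.0275. Here and below, each SE and interval of a difference uses a spread shared by the pools and drawn toward that of all probe sets. They are not the SE and interval of the 5 single differences. Single animals gave from 0.24 to 1.02, the last in animal 2.

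Kcnk2 was also lower in LMN than in MMN in 5 of 5 animals, by a difference of -0.31 ± 0.11 with an adjusted p of 0.322 by limma. IML less MMN was 0.16 ± 0.11 (limma adjusted p = 0.643) and was above 0 in 3 of 5 animals. Against the somatic mean the difference was 0.31 ± 0.10 (limma adjusted p = 0.0918), above 0 in 5 of 5 animals. The call between IML and LMN was lost when animal 2, 3, 4 or 5 was left out, with differences from 0.33 to 0.52 and limma adjusted p from 0.0627 to 0.0761. It held without animal 1 (0.51, limma adjusted p = 0.0497) and without the LMN sample of animal 2 (0.34, limma adjusted p = 0.0436). Without the animal as a replicate block, which the paired collection from each animal supports, the adjusted p was 0.452 by limma. It was also lost with the first array of each sample alone (0.42, limma adjusted p = 0.0684), with a floor of 32 on intensities (limma adjusted p = 0.0615) and with only IML and LMN in the fit (limma adjusted p = 0.0665). In the first 2 of these settings the 1 member called between IML and LMN was Kcnj1.

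Both arrays of a sample gave nearly the same Kcnk2 value, with a technical SD of 0.10. The SD over the 15 samples was 6.19 times that of the mean of 2 arrays, a ratio at the 98.8 percentile of all probe sets and the highest of the members. The animal means covered a range of 0.87 and the pool means a range of 0.47. Animal 2 was the highest animal in IML and MMN, and animal 5 in LMN.

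**Figure D2:**
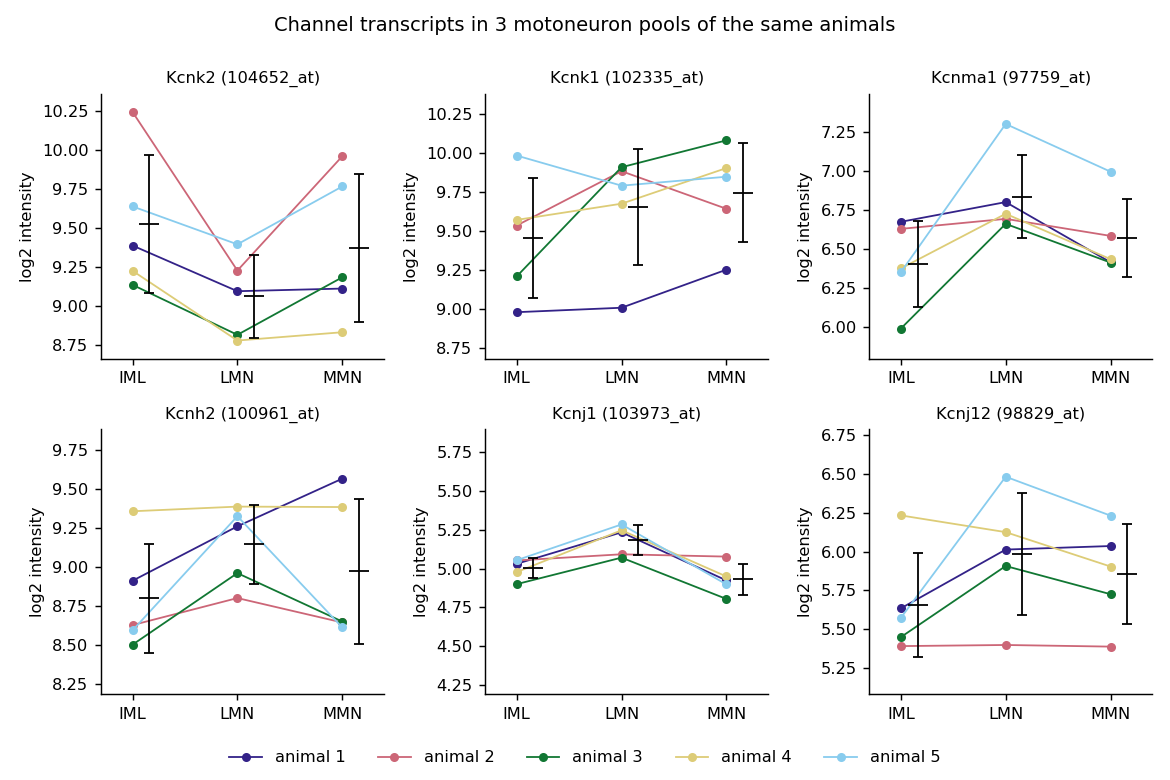
Log2 intensity of 6 probe sets in IML, LMN and MMN, with a line for each of the 5 animals and black bars for the mean ± SD; each panel spans the same log2 range. Kcnk2 falls from IML to LMN in each animal while the animals differ widely in level, and Kcnj1 varies little among animals.

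Kcnk2 was high in some of the samples in which astrocyte and fibroblast markers were high. The samples with the highest Kcnk2, IML and MMN of animal 2, had the highest means of the astrocyte list, 9.27 and 9.08, and fibroblast means of 9.85 and 9.94. The next highest, MMN of animal 5 (9.77), had an astrocyte mean of 8.83 and a fibroblast mean of 8.67. The 3 samples with the lowest Kcnk2, LMN and MMN of animal 4 and LMN of animal 3, had astrocyte means of 8.48, 8.46 and 8.60 and fibroblast means of 7.34, 7.92 and 8.22. The IML sample of animal 3, with a Kcnk2 value of 9.13, had the highest fibroblast mean of all (10.13) and an astrocyte mean of 8.67. Means of the motoneuron list were 7.72 and 7.98 in IML and MMN of animal 2 and 8.43 in MMN of animal 5. They were 8.52, 8.48 and 8.29 in the 3 samples with the lowest Kcnk2, in the order above, and 7.67 in IML of animal 3. Astrocyte means ran from 8.59 to 9.27 in IML, from 8.43 to 8.78 in LMN and from 8.41 to 9.08 in MMN. The part of any of these cell types in the Kcnk2 difference was not tested.

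**Figure D3:**
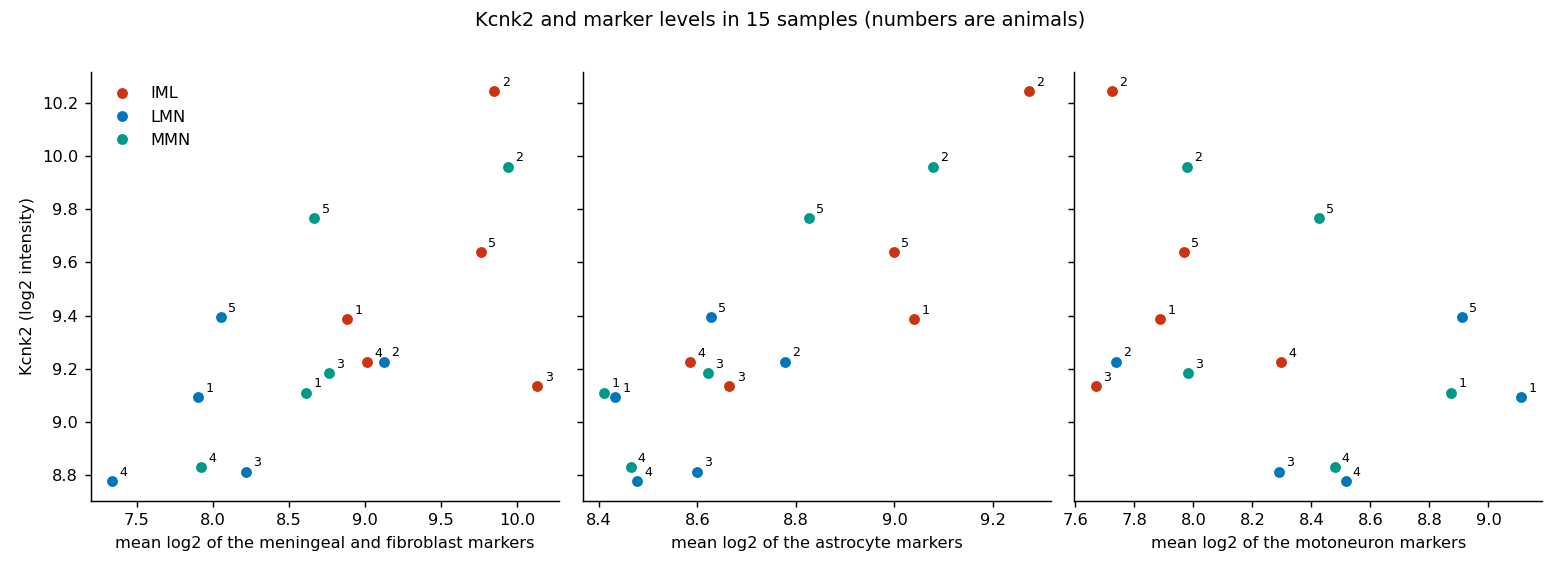
Kcnk2 (log2 intensity) against the mean log2 value of 12 meningeal and fibroblast markers (left), 9 astrocyte markers (middle) and 6 motoneuron markers (right), with 1 point for each of the 15 samples and the animal number beside it. IML and MMN of animal 2 are high on both axes at left and in the middle, and IML of animal 3, with a Kcnk2 value of 9.13, has the highest fibroblast mean and an astrocyte mean of 8.67.

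Kcnk1, the weak inward rectifier TWIK-1, was bright, at a mean of 9.46 ± 0.38 (SD, n = 5) for IML, 9.65 ± 0.37 for LMN and 9.75 ± 0.32 for MMN. Values in animals 1 to 5 were 8.98, 9.53, 9.21, 9.57 and 9.98 in IML, 9.01, 9.88, 9.91, 9.68 and 9.79 in LMN, and 9.25, 9.64, 10.08, 9.90 and 9.85 in MMN. Animal 1 was lowest in every pool, and the pools overlapped. IML was below the somatic mean in 4 of 5 animals, by a difference of -0.24 ± 0.11 with a limma adjusted p of 0.227. IML less MMN was -0.29 ± 0.12 (limma adjusted p = 0.376), with single animals from -0.87 to 0.14. Its arrays were less repeatable than those of Kcnk2: the IML sample of animal 4 gave 9.14 on the first array and 10.00 on the second.

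The other K2P genes were Kcnk3, Kcnk4 and Kcnk7. Kcnk3 encodes the acid-sensitive leak channel TASK-1, a channel known from motoneurons. Its probe set was dim, at a mean of 4.82, and its samples ran from 4.60 to 5.05. IML less LMN was -0.06 ± 0.07 for Kcnk3, with a 95% interval of -0.22 to 0.11, and IML less MMN was -0.06 ± 0.07. Kcnk4, the stretch-gated TRAAK, had means of 7.98, 7.94 and 7.93 in IML, LMN and MMN, and IML less LMN was 0.04 ± 0.05. Kcnk7, a subunit that gives no current by itself, had means of 7.53, 7.59 and 7.52.

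The calcium-activated channels were led by Kcnma1, the BK channel, which opens on voltage and calcium and speeds repolarization. In animals 1 to 5 its values were 6.67, 6.63, 5.99, 6.37 and 6.35 in IML. They were 6.80, 6.69, 6.66, 6.73 and 7.30 in LMN, and 6.41, 6.58, 6.41, 6.43 and 7.00 in MMN. IML was below LMN in 5 of 5 animals, and of the IML values only that of animal 1 reached above the lowest LMN value. IML less LMN was -0.43 ± 0.12 (limma SE, n = 5), with a limma 95% interval of -0.70 to -0.16. Its adjusted p was 0.0502 by limma, which missed the threshold of 0.05. LMN was above MMN in 5 of 5 animals, by 0.27 ± 0.12 (limma adjusted p = 0.431). Single animals ranged from -0.95 to -0.06 in IML less LMN, and animal 5, whose LMN value stood apart at 7.30, gave the largest. Without animal 5 the difference was -0.30 (limma adjusted p = 0.166).

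The adjusted p of Kcnma1 lay on either side of the threshold with the settings. It was 0.0295 by limma with the animal as a random block, 0.0442 after quantile normalization and 0.0425 with each array centred on its median. It was 0.198 by limma with the first array of each sample alone. Without the LMN sample of animal 2 the difference was -0.50 and was called (limma adjusted p = 0.0489). The difference kept its sign in all 16 alternatives, from -0.53 to -0.30.

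Kcnn1, the SK1 channel of the afterhyperpolarization, averaged 8.82 ± 0.31 (SD, n = 5) for IML, 8.99 ± 0.10 for LMN and 8.95 ± 0.14 for MMN. Its IML sample of animal 4 was the highest of all 15 at 9.34, while the other IML samples ran from 8.52 to 8.79, below every LMN sample. IML less LMN was -0.17 ± 0.09, with a limma adjusted p of 0.274. The IML sample of animal 4 was also the highest of its pool for Kcnh2 (9.36) and Kcnj12 (6.23), and it had the highest mean of the motoneuron list in IML, 8.30. Whether these share a source was not tested.

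Kcnmb1, an accessory BK subunit of smooth muscle, was dim in all but that sample. It was 7.10 in IML of animal 4, on arrays that gave 7.00 and 7.20, against 5.64 to 5.78 in the other IML samples and 5.61 to 5.82 in LMN. MMN ran from 5.63 to 6.27, and its highest sample, that of animal 2, gave 6.40 and 6.15 on its arrays. This gene was singled out after its values were seen. The smooth muscle genes Acta2 and Tagln were 7.86 and 6.68 in the same sample, within the ranges of the other IML samples for Acta2 (7.23 to 10.98) and below them for Tagln (6.76 to 8.30). Kcnmb1 had the widest intervals of the members, and its IML less LMN was 0.30 ± 0.23. Kcnn4, an SK-related channel of blood and epithelial cells, and Kcnu1, a channel of sperm, had IML less LMN of -0.01 and -0.02.

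Kcnh2 encodes ERG1, a channel that recovers fast from inactivation and carries a slow repolarizing current. Its values in animals 1 to 5 were 8.91, 8.63, 8.50, 9.36 and 8.59 in IML, 9.26, 8.80, 8.96, 9.39 and 9.33 in LMN, and 9.57, 8.64, 8.65, 9.38 and 8.61 in MMN. On the mean of both arrays IML was the lowest pool in 5 of 5 animals, by margins that were small in animal 4 and large in animal 5 against LMN. In animals 2, 4 and 5 it lay close to MMN. IML less MMN was -0.17, was not called, and ran from -0.41 to 0.07 in the alternatives. On the first arrays alone, IML of animal 4 was the highest pool (9.84, against 9.61 in LMN and 9.23 in MMN). IML of animal 5 was then above MMN (8.76 against 8.12). IML less LMN was -0.35 ± 0.12 (limma adjusted p = 0.110), and against the somatic mean it was -0.26 ± 0.11 (limma adjusted p = 0.190). Its technical SD was 0.28, the highest of the members. In the IML sample of animal 4 the arrays gave 9.84 and 8.87, and in the MMN sample of animal 5 they gave 8.12 and 9.10. Kcnh1, the related EAG1, had means of 6.40, 6.50 and 6.45 in IML, LMN and MMN and differed by -0.11 ± 0.06 between IML and LMN.

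Among inward rectifiers, 12 of 15 probe sets had IML below LMN, against 57.0% of all probe sets, and 12 of 15 had LMN above MMN, against 57.8%. The 15 probe sets stand for 11 genes and share samples, so these counts are descriptions. Differences were small: IML less LMN ran from -0.33 to 0.24 with a median of -0.09. None of the 15 was called in a comparison of 2 pools, with 5 at an unadjusted p below 0.05 in IML against LMN, where 23.5% of all probe sets passed.

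Kcnj1, the ROMK channel known from the kidney, was the 1 called by the test of any difference (limma adjusted p = 0.0449). On its probe set 103973_at, animals 1 to 5 gave 5.03, 5.05, 4.90, 4.98 and 5.05 in IML, 5.23, 5.09, 5.07, 5.25 and 5.28 in LMN, and 4.92, 5.08, 4.80, 4.95 and 4.90 in MMN. LMN was highest in each animal, by 0.01 over MMN in animal 2 and by 0.39 in animal 5. All these values lay low, with the probe set at the 15.8 percentile of all probe sets by level. LMN less MMN was 0.25 ± 0.05 (limma SE, n = 5, limma adjusted p = 0.129) and IML less LMN was -0.18 ± 0.05 (limma adjusted p = 0.0615). The second probe set of Kcnj1, 103972_at, gave 0.03 ± 0.06 for LMN less MMN and -0.09 ± 0.06 for IML less LMN, and its adjusted p for any difference was 0.620 by limma. The call of the first probe set held without animal 2 (limma adjusted p = 0.0258) and was lost without each of the other 4 animals, at limma adjusted p of 0.149 to 0.205. It was also lost with either array of each sample alone, at 0.105 and 0.135. Without the LMN sample of animal 2 the call held (limma adjusted p = 0.0254). In that setting IML less LMN was -0.23 and was called as well (limma adjusted p = 0.0258).

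The G protein-gated channel subunits, which are opened by transmitter receptors, were measured for Kcnj3, Kcnj5, Kcnj6 and Kcnj9. Kcnj3 was dim and tight, from 4.65 to 4.84 in IML, 4.75 to 4.98 in LMN and 4.78 to 4.91 in MMN. IML was below the somatic mean in 5 of 5 animals, by a difference of -0.11 ± 0.04 with a limma adjusted p of 0.149. Against LMN alone the difference was -0.14 ± 0.05 with a limma adjusted p of 0.104. It was called in 1 of 16 alternatives, with each array centred on its median (-0.16, limma adjusted p = 0.0494), and was -0.07 with the first array of each sample alone (limma adjusted p = 0.605) and -0.02 with a floor of 32 (limma adjusted p = 0.315). Kcnj6 had probe sets at mean levels of 4.82 and 3.79, with IML less LMN of -0.11 ± 0.05 and 0.01 ± 0.05. Kcnj5 differed by -0.06 ± 0.05 between IML and LMN.

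Kcnj9 gave opposite results on its probe sets, both at a mean level of 6.94. On 161799_r_at, animals 1 to 5 gave 7.46, 6.47, 7.00, 6.90 and 7.01 in IML, 6.90, 6.59, 6.91, 6.75 and 6.49 in LMN, and 7.18, 6.70, 7.24, 7.17 and 7.29 in MMN. LMN was below MMN in 5 of 5 animals, with a difference of -0.39 ± 0.11 (limma adjusted p = 0.197). On 98332_at, LMN was above MMN in 5 of 5 animals, with a difference of 0.10 ± 0.06. Its values stayed within 6.65 to 7.13. Over the 6 genes with 2 probe sets (Kcnd2, Kcnj1, Kcnj6, Kcnj9, Kcnj15 and Kcnq1), signs were opposite in 4 pairs for IML less LMN, 3 for IML less MMN and 2 for LMN less MMN. Of the 38 probe sets, 4 have a letter before _at in their names and may be less specific than the others. Their specificity was not tested.

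The ATP-sensitive channels, which close when ATP is high, were measured through both pore genes. Kcnj8, the pore of vascular and glial types, was at 6.53, 6.14, 6.22, 6.25 and 6.29 in IML of animals 1 to 5, from 5.96 to 6.22 in LMN and from 6.07 to 6.21 in MMN. IML was above the somatic mean in 5 of 5 animals, by 0.16 ± 0.06 (limma adjusted p = 0.153), with single animals from 0.0035 to 0.35. Endothelial and mural markers were called higher in IML than in LMN in 2 of 13 cases, where 8.98% of all probe sets were called in either direction. Their list means were 6.95 to 7.71 in IML, 6.66 to 7.25 in LMN and 6.94 to 7.75 in MMN, and their part was not tested. Kcnj11, the pore of neurons and beta cells, had means of 8.37 ± 0.10 (SD, n = 5), 8.47 ± 0.21 and 8.35 ± 0.16 in IML, LMN and MMN. Its IML less LMN was -0.10 ± 0.06.

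The strong rectifiers Kcnj2, Kcnj4 and Kcnj12 hold the membrane near the potassium potential. Kcnj12 was at 5.63, 5.39, 5.45, 6.23 and 5.57 in IML of animals 1 to 5, at 6.01, 5.40, 5.91, 6.12 and 6.48 in LMN, and at 6.04, 5.39, 5.73, 5.90 and 6.23 in MMN. Animal 2 was at 5.39 or 5.40 in all 3 pools, while animal 5 covered 5.57 to 6.48. IML less LMN was -0.33 ± 0.13 with a limma adjusted p of 0.151, below 0 in 4 of 5 animals. Kcnj2 differed by -0.06 ± 0.06 and Kcnj4 by -0.11 ± 0.05, the latter below 0 in 5 of 5 animals. Kcnj15 gave -0.05 on both of its probe sets.

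In the voltage-gated families, Kcnd2, a Kv4 subunit of the A-type current that delays firing, varied most, on its probe set 99339_r_at. That probe set ran from 7.84 to 9.44 over the 15 samples. LMN alone held both ends, at 7.84 in animal 1 and 9.34 and 9.44 in animals 3 and 4, with 8.69 and 8.68 in animals 2 and 5. IML was tighter, from 8.52 to 9.08. The arrays of a sample differed little, with a technical SD of 0.16, and the SD over samples was 3.90 times that of the mean of 2 arrays, at the 95.2 percentile of all probe sets. IML less LMN ranged from -0.91 in animal 4 to 0.93 in animal 1 and averaged -0.02 ± 0.19. The second probe set, 98364_at, was dim at a mean of 3.85 and covered 3.56 to 4.25. It did not repeat the order of the LMN samples. They were 3.70, 4.21, 3.89, 3.84 and 3.88 in animals 1 to 5, highest in animal 2. On 98364_at IML less MMN was 0.19 ± 0.07, with a limma adjusted p of 0.308 and an unadjusted one below 0.05, as had 12.3% of all probe sets.

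Kcnd3, another A-type subunit, had means of 7.85, 7.92 and 7.87 in IML, LMN and MMN, and IML less LMN was -0.07 ± 0.05 (95% interval -0.18 to 0.03). Kcnd1 had the narrowest spread over samples of the members, from 6.85 to 7.10. Kcnc1, the Kv3 subunit of fast-firing neurons, had means of 6.20, 6.23 and 6.27 and an IML less LMN of -0.03 ± 0.06. The silent subunits Kcns1 and Kcns2, which alter other Kv channels, differed by -0.02 ± 0.05 and -0.07 ± 0.07. Kcnq1, a Kv7 channel of heart and epithelia, gave 0.05 ± 0.08 on its brighter probe set and -0.05 ± 0.07 on the other. Its accessory subunit Kcne1 differed by -0.02 ± 0.07, and the related Kcne1l by -0.10 ± 0.06. None of these 8 genes was called in any comparison.

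The intervals show how large a difference these data allow. For 31 of the 38 probe sets, all 4 pool differences had 95% intervals within 1.5-fold in either direction, and for all 38 they lay within 2-fold. The widest interval reached 1.76-fold. For IML less the somatic mean, 97.4% of the members' intervals lay within 1.5-fold, against 91.9% over all probe sets, and for IML less MMN 94.7% did, against 91.9%. For IML less LMN, 86.8% did, against 87.5%, and for LMN less MMN 92.1% did, against 93.6%. These limits refer to the measured intensities and, for dim probe sets, say nothing of transcripts that were not detected.

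Channel levels also varied from animal to animal. The range of the 5 animal means was above the range of the 3 pool means in 36 of 38 probe sets (94.7%), against 91.9% of all probe sets. The median range over animals was 0.29 and over pools 0.11. A range over 5 means of 3 samples is wider by construction than one over 3 means of 5 samples, so these figures do not show that animals differed more than pools. The exceptions were Kcnj1 on 103973_at, where pools covered 0.25 and animals 0.15, and Kcnj3, where they covered 0.14 and 0.11. Animal 1 had the highest mean in 26 members (68.4%), 20 of them below the median level. Over all probe sets animal 1 was the highest in 48.2%, and in 64.0% of those below the median level.

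**Figure D4:**
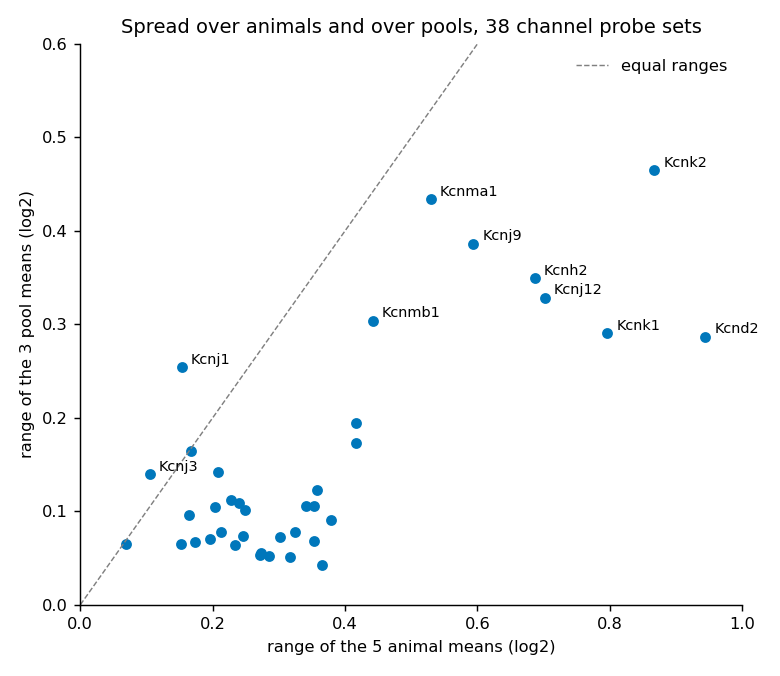
Range of the 3 pool means against the range of the 5 animal means (both log2) for each of the 38 probe sets, with a dashed line where they are equal; points fall below that line by construction more often than above it. Kcnj1 (103973_at) and Kcnj3 lie above the line, and Kcnk2 has the highest range over pools, 0.47, with a range of 0.87 over animals.

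Small differences had a common direction. LMN was the highest pool in 26 of 38 probe sets (68.4%), against 44.7% of all probe sets, and IML was the highest in 7 (18.4%) against 33.8%. IML was below LMN in 30 members (78.9%) against 57.0% of all. The median of IML less LMN was -0.06 for the members and -0.02 for all probe sets, and that of LMN less MMN was 0.06 and 0.02. For IML less MMN the medians were 0.0059 and 0.0052. The counts stayed on the same side under other scalings: LMN was highest in 26 members after quantile normalization and in 27 with arrays centred on the median, against 45.0% and 47.6% of all probe sets. Members share samples and array effects, so these counts are descriptions. LMN was above MMN in all 5 animals for 7 members (18.4%), against 8.62% of all probe sets. It was below MMN in all 5 for 3 members (7.89%), against 6.05%. IML was below LMN in all 5 for 4 (10.5%) against 10.6%, and above it in all 5 for 1 (2.63%) against 10.2%.

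Among genes that act with these channels, 19 of 30 listed partners and regulators were measured, and in neither of the following lists was the share called between IML and LMN above the 8.98% of all probe sets. The median of IML less LMN was -0.08 for them, and 1, Rest, was called lower in IML, with the difference -0.19 ± 0.05 (limma adjusted p = 0.0427) and the same sign in 5 of 5 animals. Rest encodes a repressor of neuronal genes, and its mean was 5.68 in IML and 5.86 in LMN. Of the receptors and G proteins that act on G protein-gated and Kv7 channels, 23 of 30 were measured. Called higher in IML than in LMN were 2, Gnai2 by 0.91 ± 0.18 (limma adjusted p = 0.0139) and Gnai3 by 0.60 ± 0.13 (limma adjusted p = 0.0157), both inhibitory G protein alpha subunits. Gnai2 was above LMN in 5 of 5 animals and Gnai3 in 4. The other 21 were not called, and the list's median of IML less LMN was -0.04. In IML against MMN and in LMN against MMN, none of the genes of either list was called.

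Of 10 genes of Kv1 channels and their beta subunits, 1 was called higher and 2 lower in IML than in LMN, where 8.98% of all probe sets were called. The other 7 were not called, and the list's median of IML less LMN was -0.08. The called genes held larger differences than the members. IML less LMN was -1.02 ± 0.14 for Kcna1 (limma adjusted p = 0.00254), -0.89 ± 0.09 for Kcnab1 (limma adjusted p = 0.000599) and 0.58 ± 0.09 for Kcna5 (limma adjusted p = 0.00397), against at most 0.47 in size among the members. The called probe set of Kcna5 was dim, at a mean of 5.67 in IML and 5.09 in LMN. The second probe set of Kcna5, 161775_f_at, gave -0.02 ± 0.06 (limma adjusted p = 0.887). That of Kcnab1, 162087_f_at, gave -0.53 ± 0.09 (limma adjusted p = 0.00550).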

How the data were processed

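The deposited values are linear intensity values per probe set. Per the labels, the authors normalized the array signals with "R-pack" and deposited inverse logs; how that tool works is not stated there. Array medians ran from 131.62 to 145.70. Intensities were taken to log2 with no offset (the deposited table is not on the log2 scale), 66 control probe sets were left out, and the mean of both arrays made a sample's value. The 2 arrays of a sample correlated at 0.983 to 0.998. limma 3.58.1 in R 4.3.3 fitted pool and animal over all 15 samples to 12422 probe sets, with eBayes and two-sided tests. The SE and interval of each difference come from this fit, after eBayes. P-values were adjusted by Benjamini-Hochberg over all probe sets, with a threshold of 0.05. The labels state that the pools come from the same animals, so the samples are paired by animal. Same-animal samples deviated together in 15 of 15 pairs (correlations 0.288 to 0.747). Symbols came from the platform annotation and all 38 members matched a table of the GRCm38.p6 assembly; no coordinates are given, since the annotation names no build. The steps were tested on simulated data.

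The members, gene lists and tests were chosen with earlier results of these data known. Named genes were those called in any test, the 6 members with the smallest p in IML against the somatic mean and in LMN against MMN, the smallest p of any difference in each class, and 22 fixed symbols. Of the channel-related lists only called genes are named. Further members and marker genes are named to describe classes and samples, and Kcnmb1, Acta2 and Tagln were chosen after their values were seen.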

Additional observations from a re-analysis of the deposited data

Results flagged for a closer look

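In 5 of the 60 sets of 5 animals examined (1 named probe set in 1 pool), 1 animal stood apart from the other 4 by Dixon's criterion; chance gives about 1 in 20. Kcnma1 was 7.30 in LMN of animal 5, against 6.66 to 6.80 in the others. Kcnk1 was 9.01 in LMN of animal 1, against 9.68 to 9.91. Kcnj12 was 6.23 in IML of animal 4, against 5.39 to 5.63. Kcnj9 (161799_r_at) was 6.70 in MMN of animal 2, against 7.17 to 7.29. Kcnc1 was 6.46 in IML of animal 1, against 6.09 to 6.19.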

How the results depend on the processing

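Of the 38 members, 1 was called between IML and LMN. The number was 0 without the replicate block, 0 with IML and LMN alone in the fit, 3 with a random replicate block, 2 with the second array alone, 3 after quantile normalization, 4 with arrays centred on the median, 3 with trend and robust variances, and 3 at an adjusted p threshold of 0.1. Leaving out an animal or the LMN sample of animal 2 gave 0 to 3. For any difference among the pools, 1 member was called, against 0 without the replicate block, 0 with either array alone, 0 with dim probe sets left out, 0 with a floor of 32 on intensities, 2 at a threshold of 0.1, and 0 to 1 when samples were left out. For IML against the somatic mean, 1 passed at a threshold of 0.1 and none otherwise. IML against MMN and LMN against MMN had no called member in any alternative. Over all probe sets the paired fit called 1116 between IML and LMN, against 135 without the block, and 686 against 46 for IML and the somatic mean; for IML and MMN the counts were 43 and 4, for LMN and MMN 7 and 0, and for any difference 608 and 27. None of the named members' called differences changed sign. With 5 animals the precision is limited, and how far dim probe sets lie above background is unknown. The causes of these changes were not tested.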
